A study of Rattus norvegicus with 12 samples.

Results

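The addition of HNG to AngII-treated rat atrial fibroblasts was compared with AngII alone. The libraries were chosen by their titles, which name the treatment and the replicate, and 8 of the 12 sequenced libraries belong to the comparison, 4 of AngII and 4 of AngII+HNG. The other 4 libraries, of AngII with MOTS-c, entered no test. The cells were primary fibroblasts from the atria of neonatal Sprague-Dawley rats, enriched by differential adhesion and not sorted, so that other attached cells may remain. All cells of both groups received angiotensin II (AngII) at 1 µmol/L for 48 h in medium with 2% FBS. The AngII+HNG cells in addition received HNG at 10 µmol/L, added 1 h before AngII. No untreated cells and no cells with HNG alone were analysed here, so no value below is a level without AngII. The question was which genes of AngII-treated fibroblasts change when HNG is present.

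Humanin is a small peptide encoded within the mitochondrial ribosomal RNA gene and known for protecting cells from apoptosis and oxidative stress, and HNG is a laboratory-made variant of it that acts at lower concentrations. Humanin is known to signal through a receptor complex of the gp130 family and through formyl peptide receptors. Angiotensin II is the effector peptide of the renin-angiotensin system, and in cardiac fibroblasts it drives the change to the myofibroblast, a contractile cell with α-smooth muscle actin stress fibres and large focal adhesions that secretes and crosslinks collagen. Myofibroblast activation underlies atrial fibrosis, a substrate of atrial fibrillation.

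The gene counts summed to 33009768 to 38322354 per library in AngII and to 27960586 to 37910135 in AngII+HNG. Values are given as CPM, counts for each 1000000 in the library after scaling between libraries. A floor of 3 counts, which takes in counting error alone, was 0.0783 to 0.107 CPM. The mRNAs of the mitochondrial genome took 3.16% to 3.52% of the counts in AngII and 3.29% to 3.45% in AngII+HNG. Ribosomal protein genes took 4.50% of the counts of AngII+HNG replicate 3 and 3.71% to 3.96% of those of the other 7 libraries. Markers of the labelled cell type were present: all 12 listed fibroblast genes, among them Col1a1, Pdgfra, Ddr2 and Tcf21, were measured and summed to 65345 to 69257 CPM in AngII and 64390 to 72279 CPM in AngII+HNG. Cardiomyocyte genes such as Nppa and Myh6 were also present, at a sum of 7941 to 8845 CPM in AngII and 8182 to 9578 CPM in AngII+HNG. The study describes the 4 samples of a group as independent, and the library names of replicates 2 and 3 share a number in each group, whose meaning is not given in the sources used here. The n of 4 given here counts libraries, and the p-values measure the spread between these samples, which may in part be technical.

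Of 14524 genes with enough counts to test, 869 differed between the groups at an adjusted p below 0.05 (edgeR quasi-likelihood test with Benjamini-Hochberg adjustment). This was 5.98% of the tested genes. The count was 431 without AngII replicate 1, 485 without AngII replicate 2, 512 without AngII replicate 3 and 577 with replicates 2 and 3 of each group summed to 1 library, and 359 of the 869 were called in each of 19 alternatives. The number of genes higher with HNG was 494, or 3.40%, and the number lower was 375, or 2.58%. The changes were small. The median size of a called change was 0.31 on the log2 scale, with quartiles of 0.23 and 0.45. A total of 310 called genes differed by less than 1.2-fold, 432 by 1.2- to 1.5-fold, 104 by 1.5- to 2-fold, and 23 by 2-fold or more, of which 18 were higher and 5 lower. Calls were more frequent where more reads were counted, from 0.628% of the genes below 1 CPM to 12.7% of those at 100 CPM or more. The median change over all tested genes was 0.0043 on the log2 scale. By limma on log2 FPKM, 67.2% to 67.4% of the calls were higher, against 56.8% here. In 1972 tested genes, or 13.6%, the 4 values of one group did not overlap the 4 of the other.

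**Figure D1:**
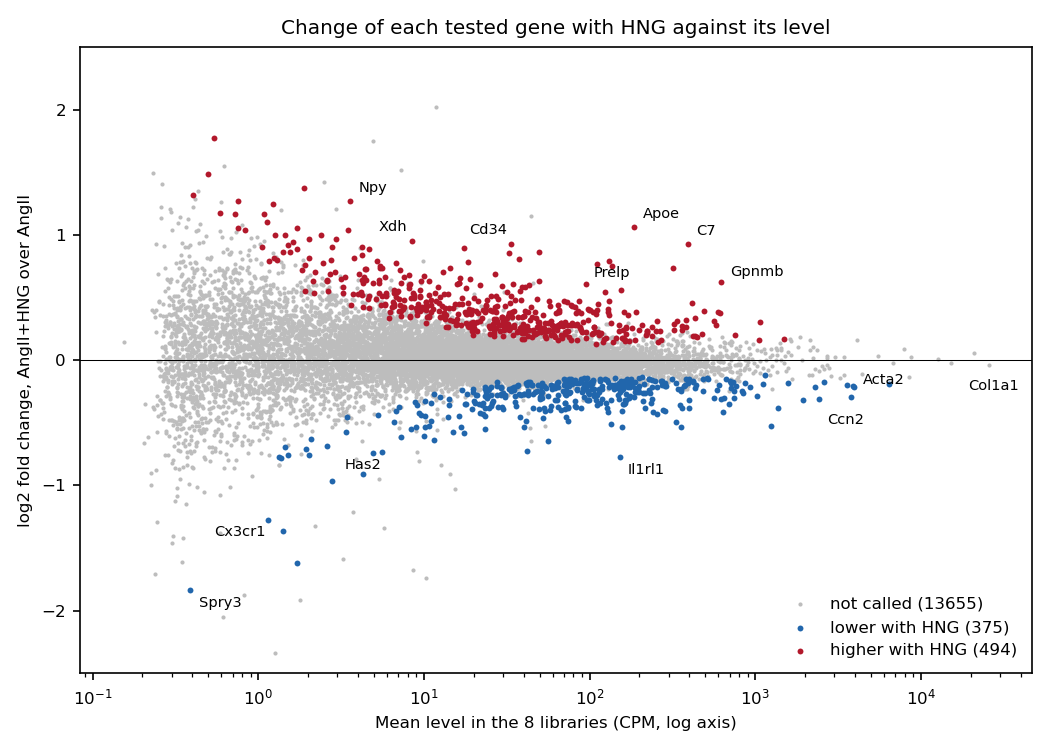
Each point is 1 of the tested genes, with its mean level in the 8 libraries in CPM on a log axis and its log2 fold change of AngII+HNG over AngII. The 494 genes called higher are red, the 375 called lower are blue and the others are grey; 3 genes beyond 2.5 log2 units lie outside the axis. Most called genes lie within 1 log2 unit of no change.

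The 5.98% above is the background for the gene lists that follow, 31 lists of genes with a shared role and 9 of cell type markers. The lists were written for fibroblasts, and their members are on the whole well expressed, which by itself goes with more calls. The lists and members were also chosen with earlier results of these data known, which by itself can raise the share called. The shares below are therefore descriptions and no test of a list. In these lists 928 genes were tested and 179 were called. Of the 19 alternatives, 8 left out 1 library each and 2 used limma on log2 FPKM, and a call is said to have ended where its adjusted p was no longer below 0.05 without the library named or by limma, which stands for both limma alternatives unless 1 is named.

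**Figure D2:**
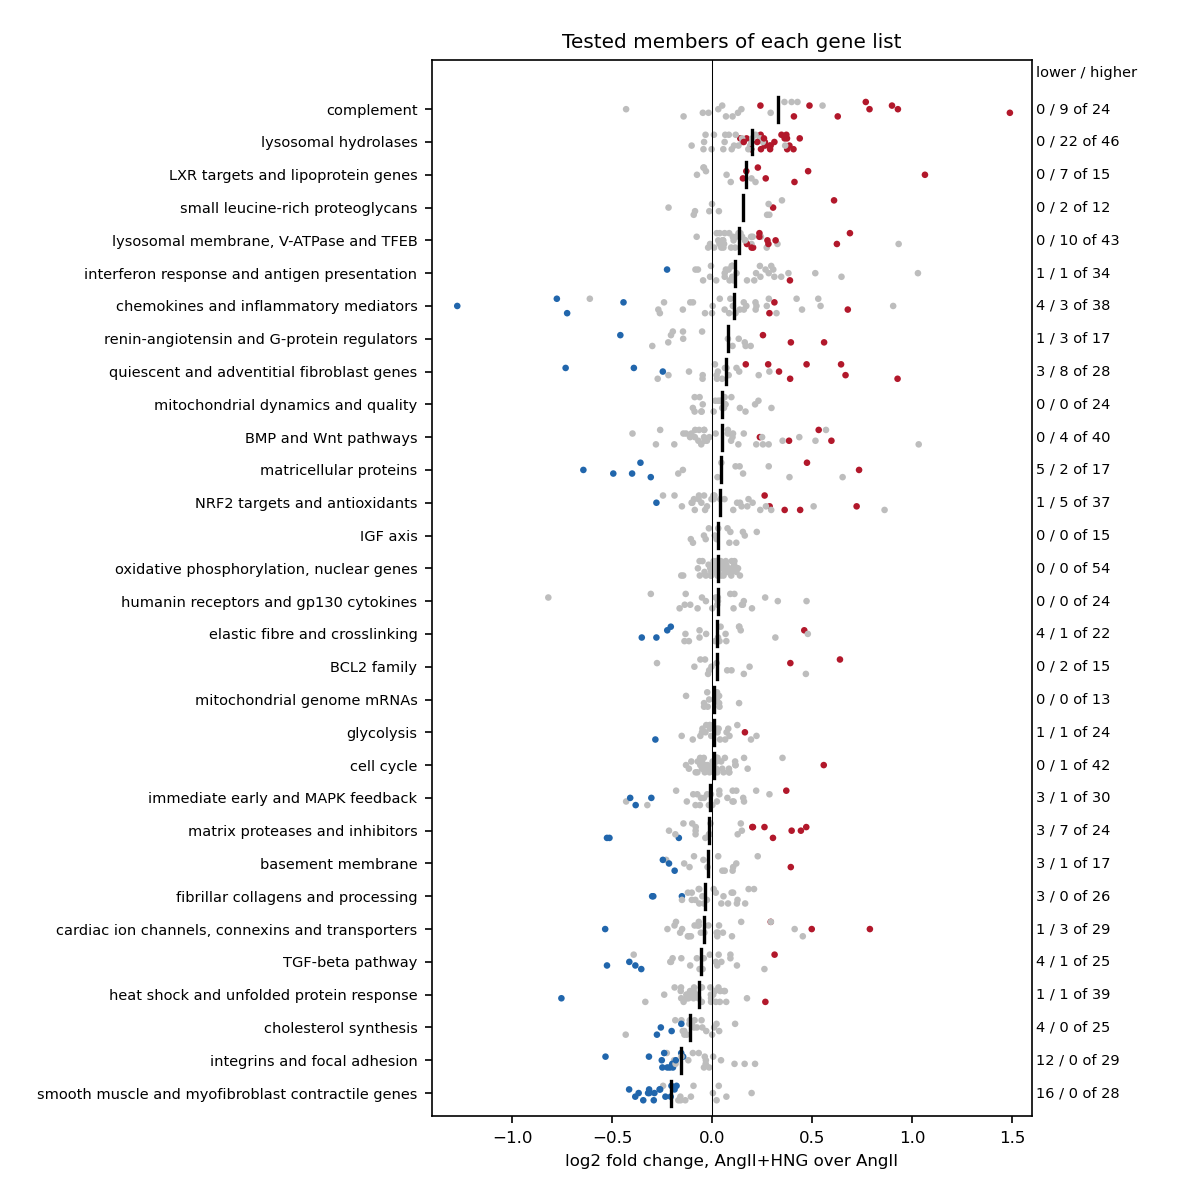
Log2 fold change of AngII+HNG over AngII for every tested member of the 31 lists, ordered by the median, which is the black bar. Red points are members called higher, blue points members called lower, and grey points members that did not pass; the numbers at the right give the called members of those tested. The contractile genes and the integrins lie lowest and the complement genes and lysosomal hydrolases highest.

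Genes of the contractile apparatus were lower with HNG. Of 28 tested genes of smooth muscle and myofibroblast contraction, 16 fell and no member rose; 23 had a negative change, and the median change was -0.20 on the log2 scale against 0.0043 for all genes. Acta2, which encodes the α-smooth muscle actin that defines the myofibroblast, measured 4255, 4164, 4138 and 4048 CPM in the AngII libraries and 3485, 3345, 3514 and 3226 CPM in the AngII+HNG libraries. All AngII+HNG values lay below all AngII values (log2 fold change -0.29 ± 0.037 SE, adjusted p = 0.000727). Tagln, an actin-binding protein of smooth muscle, measured 2163, 2259.9, 2155 and 2054 CPM in the AngII libraries and 1725, 1732, 1918 and 1542 CPM in the AngII+HNG libraries, again without overlap (log2 fold change -0.32 ± 0.057 SE, adjusted p = 0.00583). Cnn1, the calponin that binds actin and tropomyosin, fell by 0.41 on the log2 scale from 147 ± 3.28 CPM in AngII to 110.2 ± 3.95 CPM in AngII+HNG (n = 4 each, SD).

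The other members that fell cover most parts of the stress fibre. Myh11 and Myl9 encode the heavy chain and a regulatory light chain of smooth muscle myosin, with log2 changes of -0.34 ± 0.049 and -0.31 ± 0.044 (SE). Mylk, the kinase that activates myosin by phosphorylating that light chain, changed by -0.23 ± 0.055. Cald1, the caldesmon that holds actomyosin in check, was at 1611, 1554, 1574 and 1519 CPM in the AngII libraries and 1285, 1225, 1133 and 1154 CPM in the AngII+HNG libraries. It lay lower in every AngII+HNG library (log2 fold change -0.38 ± 0.044 SE, adjusted p = 0.00041). Flna, Actn1 and Vcl, which link actin filaments to each other and to the membrane, changed by -0.21 ± 0.041, -0.26 ± 0.045 and -0.29 ± 0.052. The remaining called members were Cnn2, Tpm1, Lmod1, Smtn, Pdlim7 and Srf. In all, 12 of the 16 stayed called in each of the 19 alternative computations, and calls ended for Flna by limma, Mylk by limma and without AngII replicate 1, 3 or 4 or AngII+HNG replicate 1 or 2, and Tpm1 by limma and without AngII replicate 1 or 2.

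Actb, the cytoplasmic β-actin often used as a reference gene, measured 4345, 4287, 4262 and 4108 CPM in the AngII libraries and 3952, 3908, 3244 and 3572 CPM in the AngII+HNG libraries. Its call was near the threshold (log2 fold change -0.21 ± 0.055 SE, adjusted p = 0.0411) and was lost in 6 of 19 alternatives (by limma and without AngII replicate 1, 2 or 3 or AngII+HNG replicate 4), with an adjusted p of up to 0.184. Gapdh, another common reference, was added after its values were seen and did not pass (log2 fold change 0.028 ± 0.072 SE, adjusted p = 0.888).

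Srf encodes the serum response factor, which binds the CArG box found near many contractile genes and controls them together with actin-sensing cofactors. The 250 bases before the gene start were taken from the RefSeq promoter table (build GRCr8), at the first listed start, for 23 of the 28 tested contractile genes. A CArG box, on either strand, was present in 3 of these 23, or 13%, in 1.24% of the promoters of all tested genes and in 1.5% of the 27457 promoters in the table. Among the genes that fell it was in 2 of 12. Both are shown, with the match in capitals, because they carry the motif of the factor whose own gene was lower; the first lies at chr9:21923975-21924044 on the plus strand and the second at chr7:10370354-10370403 on the minus strand.
Srf: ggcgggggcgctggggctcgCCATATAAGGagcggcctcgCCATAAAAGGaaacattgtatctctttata
Cnn2: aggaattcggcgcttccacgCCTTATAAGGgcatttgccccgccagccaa
The Srf promoter holds 2 matches, the first beginning 81 bases before the gene start, and the single match of Cnn2 begins 71 bases before it. Srf measured 94.4, 97.9, 93.6 and 89.2 CPM in the AngII libraries and 84.6, 82.7, 86.3 and 78.1 CPM in the AngII+HNG libraries and Cnn2 305, 308, 308 and 301 CPM in the AngII libraries and 271, 273, 263 and 256 CPM in the AngII+HNG libraries. Neither gene's groups overlapped, with log2 changes of -0.18 ± 0.044 and -0.20 ± 0.035. The Srf call was lost in 8 of 19 alternatives, and it was not made by limma and without AngII replicate 1, 2 or 3 or AngII+HNG replicate 2 or 4. The match is a description of the sequence and says nothing of whether the factor was bound.

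Integrins and focal adhesion proteins, through which the stress fibre holds the matrix, were lower as well. Of 29 tested genes 12 fell and no member rose, with a median change of -0.15. Itga11, the α chain of a collagen-binding integrin of myofibroblasts, was at 422, 396, 408 and 459 CPM in the AngII libraries and 299, 293, 271 and 302 CPM in the AngII+HNG libraries. The highest AngII+HNG value was well below the lowest AngII value (log2 fold change -0.53 ± 0.051 SE, adjusted p = 0.000134). Itgb1, the β chain shared by most matrix receptors, measured 3968, 3760.0, 3874 and 3764 CPM in the AngII libraries and 3494, 3436, 3262 and 3229.7 CPM in the AngII+HNG libraries (log2 fold change -0.20 ± 0.037 SE, adjusted p = 0.00853). The collagen receptor chain Itga1, the fibronectin receptor chains Itga4 and Itga5, and the laminin receptor chain Itga6 changed by -0.21 ± 0.047, -0.32 ± 0.063, -0.15 ± 0.037 and -0.25 ± 0.043. Within the adhesion plaque, the kindlin Fermt2, the scaffold Bcar1, the tensin Tns1 and the focal adhesion kinase Ptk2 fell by small amounts, from -0.24 ± 0.04 for Bcar1 to -0.14 ± 0.038 for Ptk2. Talin 1, Tln1, did not pass, at 883 ± 24.6 CPM in AngII and 843 ± 13 CPM in AngII+HNG (SD, n = 4 each; adjusted p = 0.318). This list depended on single libraries: without AngII replicate 1, 7 members were called, and without AngII+HNG replicate 3, 15. Among the genes named here, calls ended for Itgb1 by limma, Itga1 without AngII replicate 1 or 3 or AngII+HNG replicate 2, Itga5 by limma and without AngII replicate 1, 2, 3 or 4 or AngII+HNG replicate 2 or 4, Tns1 without AngII replicate 1, and Ptk2 by limma and without AngII replicate 1, 2, 3 or 4 or AngII+HNG replicate 1 or 4.

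Pericytes and smooth muscle cells use the same contractile genes, and 3 of 10 tested markers of those cells, Notch3, Mcam and Heyl, fell. No marker rose, and the summed level of the list was 1090 to 1148 CPM in AngII and 873 to 908 CPM in AngII+HNG. Notch3, a receptor of mural cells, measured 458, 444, 441 and 464 CPM in the AngII libraries and 346, 349, 327 and 366 CPM in the AngII+HNG libraries (log2 fold change -0.38 ± 0.041 SE, adjusted p = 0.000262), and Heyl, a transcriptional repressor downstream of Notch, fell from 86.2 ± 4.41 CPM in AngII to 61.4 ± 5.42 CPM in AngII+HNG (SD, n = 4 each). The pericyte marker Rgs5 was at 5.01 ± 1.51 CPM in AngII and 4.84 ± 0.449 CPM in AngII+HNG, and Cspg4, the proteoglycan NG2, at 81.9 ± 3.89 CPM in AngII and 81.7 ± 5.604 CPM in AngII+HNG, neither of which passed (adjusted p = 0.921 and 0.981). Ndufa4l2, another pericyte marker, was at 0.284 ± 0.04602 CPM in AngII and 0.434 ± 0.137 CPM in AngII+HNG, higher in every AngII+HNG library, and did not pass (log2 fold change 0.58 ± 0.33 SE, adjusted p = 0.362). In bulk RNA, fewer cells of a type and less RNA per cell cannot be told apart. The part of these cells in the change of the contractile genes was not tested.

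Most fibrillar collagens did not pass the test. Col1a1, the main chain of type I collagen, was at 26729, 25629, 25237 and 26633 CPM in the AngII libraries and 25354, 26264, 22958 and 26764 CPM in the AngII+HNG libraries, and the groups overlapped. The log2 change was -0.041 ± 0.045 with a 95% confidence interval of -0.14 to 0.057 and an adjusted p of 0.687, and without AngII+HNG replicate 3 its sign turned to 0.0038. Col1a2 and Col3a1, at -0.025 ± 0.029 and 0.057 ± 0.048, did not pass either. Of 26 tested genes of fibrillar collagens and their processing, 3 fell: Col12a1, a collagen on the fibril surface (log2 fold change -0.30 ± 0.054 SE, adjusted p = 0.00608), P4ha1, a prolyl hydroxylase of new collagen chains (log2 fold change -0.15 ± 0.04 SE, adjusted p = 0.0468), and Adamts14, which removes the amino propeptide (log2 fold change -0.29 ± 0.06 SE, adjusted p = 0.0124). Calls ended for P4ha1 by limma and without AngII replicate 1, 2, 3 or 4 or AngII+HNG replicate 1, 2 or 4, and Adamts14 by limma and without AngII replicate 1. Col12a1 measured 727, 671, 716 and 767 CPM in the AngII libraries and 583, 553, 561 and 644 CPM in the AngII+HNG libraries. The count for this list varied, with 6 members called lower without AngII+HNG replicate 3 and 6 by DESeq2. Without AngII replicate 4, 3 members were called higher.

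In the basement membrane list, 3 of 17 genes fell and 1 rose. Col4a1, a chain of the network-forming type IV collagen, was at 6912, 6799.8, 6639.6 and 6867 CPM in the AngII libraries and 6239.8, 5908, 5889 and 5876 CPM in the AngII+HNG libraries, with no overlap (log2 fold change -0.19 ± 0.033 SE, adjusted p = 0.00583). The Col4a1 call was not made by limma. Nid1, which ties that network to laminin, and the laminin chain Lama5 changed by -0.21 ± 0.035 and -0.25 ± 0.042. Lama2, the laminin chain of muscle and mesenchyme, went the other way, with 438, 410.2, 421 and 427 CPM in the AngII libraries and 564, 570.0, 522 and 573 CPM in the AngII+HNG libraries. Every AngII+HNG library was above every AngII library (log2 fold change 0.39 ± 0.04 SE, adjusted p = 0.000202).

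The crosslinking enzymes Lox, Loxl2 and Tgm2 were lower, while elastin itself was not called. Lox, the lysyl oxidase that crosslinks collagen and elastin, measured 802, 768, 769 and 774 CPM in the AngII libraries and 643, 609.6, 567 and 621 CPM in the AngII+HNG libraries (log2 fold change -0.35 ± 0.042 SE, adjusted p = 0.000511). Loxl2 and the transglutaminase Tgm2 changed by -0.22 ± 0.038 and -0.28 ± 0.047. Ltbp2, a microfibril protein related to the latent TGF-β binding proteins, fell from 824 ± 17.2 CPM in AngII to 715 ± 39.96 CPM in AngII+HNG (SD, n = 4 each), a call lost without AngII replicate 1 (adjusted p = 0.0594). Fbln1, a fibulin of elastic fibres and basement membranes, rose with a log2 change of 0.46 ± 0.10, a call lost without AngII replicate 1 or 2. Eln was at 8858 ± 182 CPM in AngII and 8053 ± 1056 CPM in AngII+HNG and did not pass (adjusted p = 0.301). In total 4 of 22 genes of this list fell and 1 rose.

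Matricellular proteins, which signal to cells from the matrix, moved in both directions, with 5 of 17 lower and 2 higher. All 7 stayed called in each of the 19 alternatives. The lower ones were tenascin C, Tnc, and the CCN proteins Ccn1, Ccn2, Ccn3 and Ccn4. Ccn2, the connective tissue growth factor and a target of both TGF-β and mechanical signals, measured 2796, 2778, 2701 and 2444 CPM in the AngII libraries and 2232, 2159.6, 2286 and 1993 CPM in the AngII+HNG libraries (log2 fold change -0.31 ± 0.052 SE, adjusted p = 0.00454). Ccn4 showed the largest change of these, with 72.7, 61.8, 67.3 and 70.4 CPM in the AngII libraries and 46.7, 42.03, 38.9 and 46.8 CPM in the AngII+HNG libraries (log2 fold change -0.64 ± 0.068 SE, adjusted p = 0.000257). The values of Tnc, a protein of healing wounds, were 338, 322, 303 and 305 CPM in the AngII libraries and 241, 251, 234 and 236 CPM in the AngII+HNG libraries, without overlap (log2 fold change -0.40 ± 0.044 SE, adjusted p = 0.00032). The groups of Ccn1 and Ccn3 did not overlap either, with log2 changes of -0.36 ± 0.052 and -0.49 ± 0.048.

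Of the 2 matricellular genes that rose, Spp1 encodes osteopontin, a phosphoprotein made by fibroblasts and by macrophages. It was at 209.7, 233, 213 and 304 CPM in the AngII libraries and 382, 408, 332 and 478 CPM in the AngII+HNG libraries, the lowest AngII+HNG value being close above the highest AngII value, that of replicate 4 (log2 fold change 0.74 ± 0.12 SE, adjusted p = 0.0035). Tgfbi, a secreted adhesion protein, rose from 17.7 ± 1.48 CPM in AngII to 24.6 ± 1.57 CPM in AngII+HNG (SD, n = 4 each). Fibronectin, Fn1, and periostin, Postn, were at 8622 ± 231 CPM in AngII and 8788 ± 242 CPM in AngII+HNG and at 1557 ± 253 CPM in AngII and 1734 ± 262 CPM in AngII+HNG, and neither passed (adjusted p = 0.723 and 0.485).

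Among 12 small leucine-rich proteoglycans, which coat collagen fibrils, 2 rose. Prelp measured 77.9, 77.8, 74.1 and 70.6 CPM in the AngII libraries and 111, 117, 117 and 114 CPM in the AngII+HNG libraries, 2 sets of values far apart relative to their spread (log2 fold change 0.61 ± 0.043 SE, adjusted p = 9.65e-06). Fmod, fibromodulin, changed by 0.31 ± 0.046. Decorin, Dcn, was at 116 ± 19.4 CPM in AngII and 142 ± 23.5 CPM in AngII+HNG and biglycan, Bgn, at 5451 ± 218 CPM in AngII and 5583 ± 174 CPM in AngII+HNG, neither of which passed (adjusted p = 0.19 and 0.686).

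Matrix proteases and their inhibitors divided, with 7 of 24 higher and 3 lower. Mmp2, the gelatinase that degrades denatured collagen and basement membrane, was at 959, 969.8, 892 and 989.8 CPM in the AngII libraries and 1109.9, 1201, 1168 and 1228 CPM in the AngII+HNG libraries. It was higher in every AngII+HNG library (log2 fold change 0.30 ± 0.044 SE, adjusted p = 0.00161). Mmp12, an elastase best known from macrophages, changed by 0.47 ± 0.066, and Timp2, an inhibitor that also assists the activation of pro-MMP2, by 0.20 ± 0.044. The aggrecanase Adamts5 and the related Adamts12 moved in opposite directions. Adamts5 measured 85.04, 86.98, 86.4 and 83.96 CPM in the AngII libraries and 110.0, 114, 115 and 112 CPM in the AngII+HNG libraries (log2 fold change 0.40 ± 0.035 SE, adjusted p = 0.00012), and Adamts12 161, 158, 163 and 153 CPM in the AngII libraries and 114, 111, 104 and 117 CPM in the AngII+HNG libraries (log2 fold change -0.51 ± 0.044 SE, adjusted p = 8.3e-05). Plau, the urokinase that activates plasminogen, changed by 0.44 ± 0.10. Calls ended for Timp2 without AngII replicate 1, 2 or 3, and Plau without AngII replicate 1 or 2 or AngII+HNG replicate 4. Adamts9, the membrane protease inhibitor Reck and Adamts1 were the other called members, at 0.26 ± 0.049, 0.20 ± 0.045 and -0.17 ± 0.041, with calls ended for Adamts9 by limma, Reck without AngII replicate 1, 2 or 3 or AngII+HNG replicate 4, and Adamts1 by limma and without AngII replicate 1, 2 or 3 or AngII+HNG replicate 4.

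**Figure D3:**
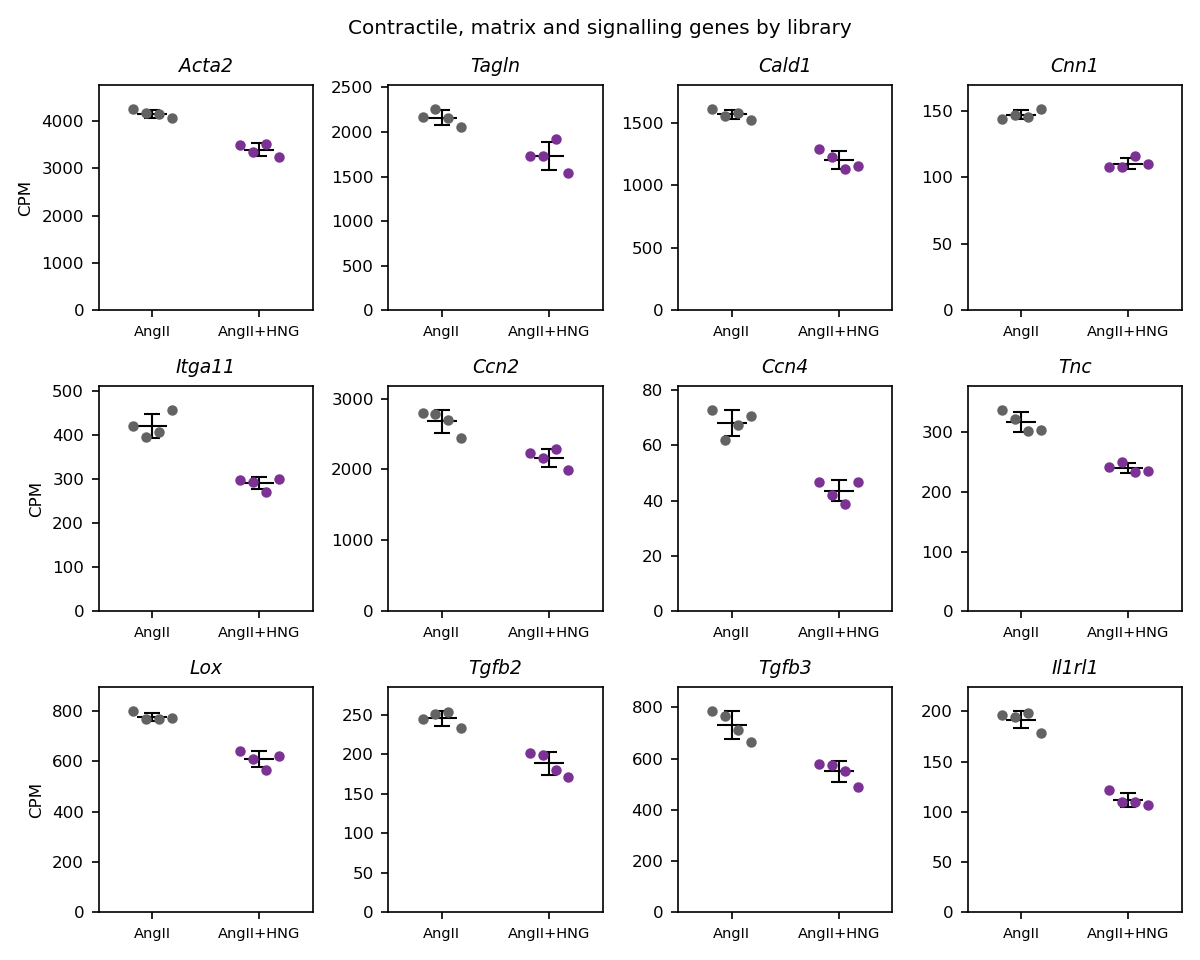
CPM in each library for 12 contractile, matrix and signalling genes, with the mean and SD as horizontal bar and whiskers (4 libraries a group) on axes that start at 0. In each of the 12 genes all AngII+HNG values lie below all AngII values, and the shift is small and even in Acta2 and Cald1.

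The TGF-β pathway is the main inducer of the myofibroblast, and 4 of its 25 tested genes fell and 1 rose. The members called lower were 2 without AngII replicate 1 or 2, 1 or 2 by limma, and 8 by DESeq2 or with a replicate block. Without AngII+HNG replicate 3, 6 were called lower and 3 higher. The ligands differed. Tgfb2 measured 245, 251, 253 and 233 CPM in the AngII libraries and 202, 199, 180.3 and 171 CPM in the AngII+HNG libraries (log2 fold change -0.38 ± 0.054 SE, adjusted p = 0.00148), and Tgfb3 785, 767, 712 and 665 CPM in the AngII libraries and 581, 577, 551 and 491 CPM in the AngII+HNG libraries (log2 fold change -0.41 ± 0.062 SE, adjusted p = 0.0021). Both fell without overlap, while Tgfb1 was at 53 ± 2.84 CPM in AngII and 51.03 ± 2.38 CPM in AngII+HNG (SD, n = 4 each) and did not pass (adjusted p = 0.624). The call of Tgfb3 was not made by limma. Inhba, the activin A subunit, fell with a log2 change of -0.35 ± 0.079, and the call ended for Inhba by limma and without AngII replicate 1 or 2. The type II receptor Tgfbr2 was higher, at 224, 218, 229 and 241 CPM in the AngII libraries and 272, 267, 280.0 and 314 CPM in the AngII+HNG libraries (log2 fold change 0.31 ± 0.053 SE, adjusted p = 0.00448). Its partner Tgfbr1 and the signal transducers Smad2, Smad3 and Smad4 did not pass, with log2 changes of 0.092 ± 0.051, -0.041 ± 0.042, -0.011 ± 0.044 and -0.047 ± 0.058.

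In the BMP and Wnt list 4 of 40 genes rose. They were the BMP antagonist Grem1, the BMP target Id1, and the secreted Wnt antagonists Sfrp2 and Frzb, with log2 changes of 0.24 ± 0.046, 0.39 ± 0.069, 0.53 ± 0.13 and 0.60 ± 0.12. Frzb measured 14.1, 15.7, 18.1 and 21.1 CPM in the AngII libraries and 25.8, 22, 26.4 and 30.2 CPM in the AngII+HNG libraries. Id1 was at 34.6, 37.4, 35.2 and 41.2 CPM in the AngII libraries and 46.5, 54.1, 47.5 and 45.7 CPM in the AngII+HNG libraries. The 4 genes had no overlap between the groups, and the call ended for Sfrp2 without AngII replicate 1, 2 or 3 or AngII+HNG replicate 2 or 4.

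AngII signals through a G-protein coupled receptor to calcium and MAP kinases, and a few genes of these routes differed. Of 30 immediate early and MAPK feedback genes, 3 fell and 1 rose. The phosphatase Dusp1, which inactivates MAP kinases, changed by -0.38 ± 0.051, the inhibitor Spry4 by -0.41 ± 0.057 and the early response gene Ier3 by -0.30 ± 0.05. Klf4, a zinc finger factor that in smooth muscle represses contractile genes, was at 98.5, 100.2, 93.1 and 87.3 CPM in the AngII libraries and 121, 128, 122 and 119 CPM in the AngII+HNG libraries. It rose without overlap (log2 fold change 0.37 ± 0.047 SE, adjusted p = 0.000736). Of 17 genes of the renin-angiotensin system and G-protein regulation, 3 rose and 1 fell. Ace, the enzyme that makes AngII, measured 7.404, 7.17, 7.81 and 8.401 CPM in the AngII libraries and 9.39, 11.3, 12.2 and 12.5 CPM in the AngII+HNG libraries (log2 fold change 0.56 ± 0.10 SE, adjusted p = 0.00633). Rgs4, which shortens G-protein signals, was at 58.5, 54.3, 63.3 and 66.03 CPM in the AngII libraries and 44.2, 40.6, 45.8 and 45.7 CPM in the AngII+HNG libraries (log2 fold change -0.46 ± 0.065 SE, adjusted p = 0.00148). Rgs10 and the prorenin receptor Atp6ap2 rose by 0.39 ± 0.063 and 0.25 ± 0.052, and the call ended for Atp6ap2 without AngII replicate 1 or 2. The AngII receptor gene Agtr1a was at 39.5 ± 4.21 CPM in AngII and 45.1 ± 7.15 CPM in AngII+HNG, with a difference that did not pass (adjusted p = 0.321).

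Of 28 genes of resting and adventitial fibroblasts and transcription factors of the lineage, 8 were higher, 3 lower and 17 not called. The median change was 0.068, 20 had a positive change, and the summed levels of the groups overlapped. Cd34, a sialomucin of stromal progenitors and endothelium, measured 25, 22.8, 20.97 and 24.1 CPM in the AngII libraries and 42.7, 46.4, 41.8 and 45.9 CPM in the AngII+HNG libraries, a near doubling in every library (log2 fold change 0.93 ± 0.062 SE, adjusted p = 7.42e-06). Pi16, a marker of adventitial fibroblasts, and the ferritin receptor Scara5 changed by 0.67 ± 0.11 and 0.47 ± 0.055. The factors Tcf21 and Tbx20, which mark and pattern the cells of the heart, were higher, Tbx20 at 391, 373, 384 and 395 CPM in the AngII libraries and 479, 503, 451 and 513 CPM in the AngII+HNG libraries (log2 fold change 0.34 ± 0.044 SE, adjusted p = 0.00102). Meox2, Abca8a and Thy1 made up the rest, at 0.65 ± 0.14, 0.39 ± 0.073 and 0.17 ± 0.039. The 3 lower genes are known from activated fibroblasts: Has2, a hyaluronan synthase, measured 8.06, 6.34, 6.32 and 7.33 CPM in the AngII libraries and 4.59, 3.91, 4.13 and 4.304 CPM in the AngII+HNG libraries (log2 fold change -0.73 ± 0.11 SE, adjusted p = 0.00227), and Cthrc1 and Sox9 changed by -0.39 ± 0.10 and -0.25 ± 0.065. Calls ended for Thy1 without AngII replicate 1, 3 or 4 or AngII+HNG replicate 2, Meox2 without AngII replicate 1 or 2, Cthrc1 by limma and without AngII replicate 2, 3 or 4 or AngII+HNG replicate 1 or 2, and Sox9 by limma and without AngII replicate 1, 2 or 3 or AngII+HNG replicate 2, 3 or 4, and the Cthrc1 groups overlapped. Pdgfra, the fibroblast receptor for PDGF, was at 225 ± 13.7 CPM in AngII and 229 ± 20.7 CPM in AngII+HNG and did not pass (adjusted p = 0.881).

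Genes of lipoprotein handling and targets of the liver X receptors (LXR), the nuclear receptors for oxysterols, were higher in 7 of 15 cases and none was lower. Apoe, the apolipoprotein that carries lipids out of cells, measured 111, 118, 125 and 128 CPM in the AngII libraries and 211, 222, 312 and 262 CPM in the AngII+HNG libraries. The levels doubled, and replicate 3 was highest in AngII+HNG (log2 fold change 1.06 ± 0.10 SE, adjusted p = 0.000129). Abca1, the cholesterol exporter and best known LXR target, was at 84.96, 79.3, 85.1 and 86.5 CPM in the AngII libraries and 109.5, 114, 111 and 113 CPM in the AngII+HNG libraries, with little spread in either group (log2 fold change 0.41 ± 0.039 SE, adjusted p = 0.000129). Pltp, a phospholipid transfer protein, rose from 32.3 ± 0.667 CPM in AngII to 45.04 ± 3.303 CPM in AngII+HNG (SD, n = 4 each). Apoe, Abca1 and Pltp stayed called in each of the 19 alternatives. Lrp1, an endocytic receptor for apolipoprotein E, and Srebf1, which controls fatty acid synthesis and is itself an LXR target, changed by 0.17 ± 0.035 and 0.15 ± 0.035. Lpl, the lipoprotein lipase, and Abca2 changed by 0.23 ± 0.058 and 0.27 ± 0.066. The Lpl groups overlapped, and calls ended for Lrp1 without AngII replicate 2 or 3, Srebf1 without AngII replicate 1, 2 or 3 or AngII+HNG replicate 4, Lpl by limma on log2 FPKM plus 1 and without AngII replicate 1, 2 or 3 or AngII+HNG replicate 1, 2 or 4, and Abca2 by limma and without AngII replicate 2, 3 or 4 or AngII+HNG replicate 1, 2 or 4. Without AngII replicate 2 the list had 3 called members, and without AngII+HNG replicate 3 it had 8.

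Of 25 genes of cholesterol synthesis, 4 fell, and 20 had a negative change, with a median of -0.11. The isomerase Idi1, which makes an isoprenoid building block, was at 122, 119, 118 and 114 CPM in the AngII libraries and 102, 104, 88.2 and 95.6 CPM in the AngII+HNG libraries (log2 fold change -0.28 ± 0.051 SE, adjusted p = 0.00741). Msmo1, Sc5d and Nsdhl, enzymes of the late sterol steps, changed by -0.26 ± 0.052, -0.20 ± 0.042 and -0.15 ± 0.038. The Idi1 call held in each of the 19 alternatives, and calls ended for Msmo1 without AngII replicate 1, Sc5d by limma and without AngII replicate 2, and Nsdhl without AngII replicate 1, 2, 3 or 4 or AngII+HNG replicate 2 or 4.

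The largest group by number of calls was that of the lysosome, the organelle in which proteins, glycans and lipids are broken down in an acid lumen. Of 46 tested hydrolases and their activators 22 rose and no member fell; 41 had a positive change, and the median change was 0.20. Cathepsins made up 8 of the 22. The aspartic protease Ctsd measured 512, 509, 522 and 592 CPM in the AngII libraries and 657, 668, 693 and 749.8 CPM in the AngII+HNG libraries (log2 fold change 0.37 ± 0.056 SE, adjusted p = 0.00205). Ctsb, a cysteine protease, was at 481, 511, 512 and 561 CPM in the AngII libraries and 594, 629.6, 775 and 703 CPM in the AngII+HNG libraries (log2 fold change 0.39 ± 0.074 SE, adjusted p = 0.00832), and Ctsl at 476, 508, 505 and 514 CPM in the AngII libraries and 623, 604, 643 and 616 CPM in the AngII+HNG libraries (log2 fold change 0.31 ± 0.038 SE, adjusted p = 0.000575). In the 3 genes no AngII+HNG value was as low as the highest AngII value. Lgmn, the legumain that matures cathepsins, changed by 0.36 ± 0.057.

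The 22 called hydrolases also included enzymes that degrade glycans. Gaa, the acid glucosidase that degrades glycogen, was at 111, 106, 110.0 and 120.4 CPM in the AngII libraries and 139, 146, 149 and 159 CPM in the AngII+HNG libraries (log2 fold change 0.41 ± 0.05 SE, adjusted p = 0.000582). Hexa, Naglu, Man2b1, Idua and Glb1, which remove sugars from gangliosides, heparan sulfate and glycoproteins, changed by 0.26 ± 0.048, 0.35 ± 0.064, 0.26 ± 0.041, 0.26 ± 0.056 and 0.14 ± 0.036. Sgsh, a sulfamidase that removes sulfate from heparan sulfate, changed by 0.29 ± 0.058. Psap, the precursor of the saposins that present lipids to the hydrolases, measured 985, 994, 982 and 1017 CPM in the AngII libraries and 1068, 1079.6, 1179 and 1114 CPM in the AngII+HNG libraries, higher in every AngII+HNG library (log2 fold change 0.16 ± 0.039 SE, adjusted p = 0.0294). A total of 12 of the 22 stayed called in each alternative, and 13 of the list were called without AngII replicate 1. Calls ended for Glb1 without AngII replicate 1, 2 or 3 or AngII+HNG replicate 1, 2 or 4, Idua without AngII replicate 1, 2 or 3, and Psap without AngII replicate 1, 2 or 3 or AngII+HNG replicate 4.

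Of 43 genes of the lysosomal membrane, the proton pump and their control, 10 rose and no member fell, and the median change was 0.13. Gpnmb is a glycoprotein induced by lysosomal stress in macrophages and other cells. Among annotated genes called higher without overlap, Gpnmb had the largest difference in CPM, a measure that grows with level and gene length. It measured 452, 455, 476 and 582 CPM in the AngII libraries and 675, 702, 792 and 862 CPM in the AngII+HNG libraries, with replicate 4 highest in both groups (log2 fold change 0.62 ± 0.088 SE, adjusted p = 0.00148). Grn, the progranulin that supports lysosomal enzymes, was at 333, 315, 341 and 368 CPM in the AngII libraries and 403, 402, 409.6 and 478 CPM in the AngII+HNG libraries (log2 fold change 0.32 ± 0.062 SE, adjusted p = 0.00909). Lamp1, a main protein of the membrane, the calcium channel Mcoln1 and the sterol carrier Npc2 changed by 0.21 ± 0.046, 0.28 ± 0.062 and 0.20 ± 0.047. The proton pump subunits Atp6v1b2 and Atp6v1d and the accessory Atp6ap1 changed by 0.24 ± 0.058, 0.28 ± 0.057 and 0.17 ± 0.039. The last 2 called members were Lamtor1, an anchor of the nutrient-sensing complex, at 0.24 ± 0.051, and Cd68, at 0.69 ± 0.11, a lysosomal glycoprotein that is also a macrophage marker. The Npc2 groups overlapped. Without AngII replicate 1, 4 of the list were called, and calls ended for Npc2 without AngII replicate 1, 2 or 3 or AngII+HNG replicate 2 or 4, Atp6v1b2 without AngII replicate 1 or 2 or AngII+HNG replicate 4, Atp6v1d without AngII replicate 1, Atp6ap1 without AngII replicate 1, 2 or 3 or AngII+HNG replicate 2, and Lamtor1 without AngII replicate 2 or 3 or AngII+HNG replicate 4.

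TFEB and related factors, which control lysosomal genes, are known to bind sites around the letters CACGTG. In the 250 bases before the gene start, at the first listed start of the same table, these letters were present in 6 of 35 promoters of hydrolases, or 17.1%, in 6 of 36 of the membrane and pump list, or 16.7%, and in 7.94% of the promoters of all tested genes. The letters are their own reverse complement, so each match counts for both strands. Of the called hydrolases 5 of 16 held them, and of those not called 1 of 19. Among the called genes of the membrane and pump list 3 of 9 held them, and 3 of 27 among the others. The stretches below are examples from called members with a match, 3 hydrolases and 2 genes of the membrane list, with the letters in capitals; they lie at chr1:206968953-206968998 (minus strand), chr10:105028268-105028313 (plus), chr8:122963598-122963643 (plus), chr16:83075188-83075266 (minus) and chr12:6358216-6358257 (plus).
Ctsd: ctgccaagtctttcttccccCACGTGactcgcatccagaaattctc
Gaa: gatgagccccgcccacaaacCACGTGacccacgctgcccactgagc
Glb1: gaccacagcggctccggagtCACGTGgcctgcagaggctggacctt
Lamp1: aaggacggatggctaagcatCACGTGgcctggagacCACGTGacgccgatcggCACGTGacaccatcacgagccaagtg
Mcoln1: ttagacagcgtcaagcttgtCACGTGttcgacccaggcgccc
The Lamp1 promoter held 5 matches, 3 of them in the stretch shown, and that of Ctsd 2. Lamp1 measured 428, 434, 433 and 481 CPM in the AngII libraries and 509, 513, 489 and 536 CPM in the AngII+HNG libraries (log2 fold change 0.21 ± 0.046 SE, adjusted p = 0.0186) and Mcoln1 24.4, 25.6, 25.8 and 26.8 CPM in the AngII libraries and 27.8, 31.6, 33.6 and 31.3 CPM in the AngII+HNG libraries (log2 fold change 0.28 ± 0.062 SE, adjusted p = 0.0188). Calls ended for Lamp1 by limma and without AngII replicate 1, 2 or 3 or AngII+HNG replicate 2 or 4, and Mcoln1 without AngII replicate 1, 2 or 3 or AngII+HNG replicate 2. A match is no evidence that a factor was bound.

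Complement genes rose in 9 of 24 cases and no member fell, with a median change of the list of 0.33, which lay between 0.17 and 0.37 in the alternatives. C7, a part of the membrane attack complex, measured 228, 225, 263 and 364 CPM in the AngII libraries and 468, 448, 501 and 640.1 CPM in the AngII+HNG libraries. Replicate 4 was highest in both groups, and the groups did not overlap (log2 fold change 0.93 ± 0.14 SE, adjusted p = 0.00254). C1s and C1r, the proteases that start the classical pathway, were called, C1s at 70.3, 81.4, 77.7 and 101 CPM in the AngII libraries and 119.7, 136, 137 and 169 CPM in the AngII+HNG libraries (log2 fold change 0.77 ± 0.11 SE, adjusted p = 0.00155) and C1r with a change of 0.24 ± 0.046. Their inhibitor Serping1 changed by 0.49 ± 0.078. C4a, whose reads may be shared with a near-identical copy of the gene, was at 11.2, 12.8, 15.04 and 15.3 CPM in the AngII libraries and 20.2, 21.2, 24.02 and 28.3 CPM in the AngII+HNG libraries (log2 fold change 0.79 ± 0.12 SE, adjusted p = 0.00205). C6, another part of the membrane attack complex, was at 0.184, 0.343, 0.182 and 0.32 CPM in the AngII libraries and 0.782, 0.656, 0.759 and 0.731 CPM in the AngII+HNG libraries, low but above the floor (log2 fold change 1.49 ± 0.29 SE, adjusted p = 0.0102). The receptors C3ar1 and C5ar2 changed by 0.90 ± 0.13 and 0.63 ± 0.092, and C2 by 0.41 ± 0.10, with calls ended for C2 without AngII replicate 1, 2 or 3 or AngII+HNG replicate 2 or 4. C6 was not tested under a filter of at least 10 counts in every library. The complement genes C1qa, C1qb and C1qc, which macrophages make, did not pass, with log2 changes of 0.10 ± 0.20, -0.046 ± 0.16 and -0.43 ± 0.20.

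**Figure D4:**
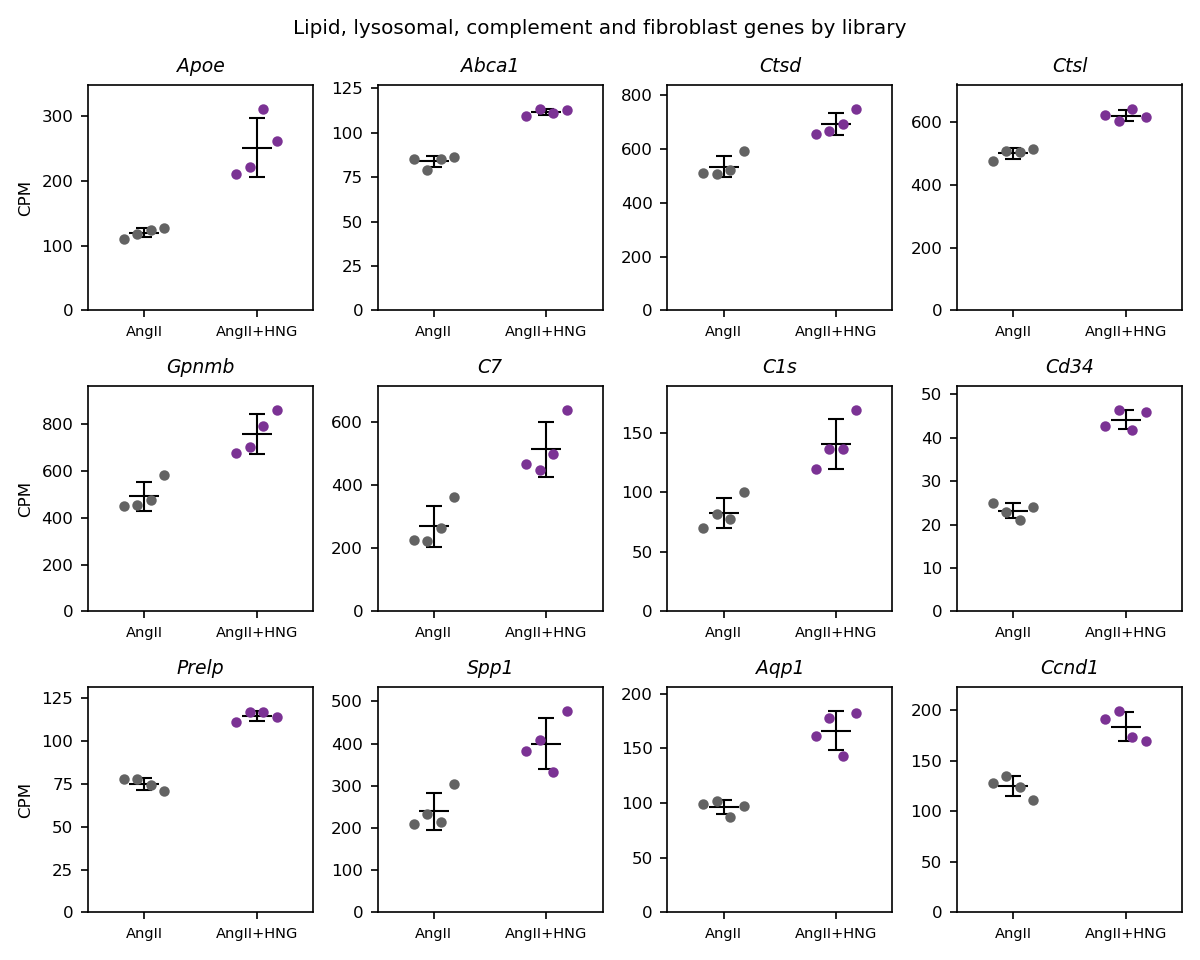
CPM in each library for 12 genes of lipid transport, the lysosome, complement and fibroblasts, with the mean and SD (4 libraries a group) on axes that start at 0. All AngII+HNG values lie above all AngII values in the 12 genes; in C7, Gpnmb and Spp1 replicate 4 is the highest of both groups, and in Cd34 and Prelp the groups are tight and far apart.

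Macrophages are rich in lysosomes, apolipoprotein E and complement receptors, and the summed level of their markers was higher in the AngII+HNG libraries. Of 20 tested markers, 5 rose: Cd68, Lyz2, Mrc1, Spi1 and Ptprc. The summed level of the list was 353 to 426 CPM in AngII and 470 to 613 CPM in AngII+HNG, without overlap, and the mean was 1.39 times as high. Lyz2, the lysozyme of phagocytes, measured 96.4, 97.8, 100.5 and 114 CPM in the AngII libraries and 151, 162, 173 and 201 CPM in the AngII+HNG libraries (log2 fold change 0.75 ± 0.08 SE, adjusted p = 0.000262), and Mrc1, the mannose receptor, 28.7, 28.7, 30.4 and 34.96 CPM in the AngII libraries and 42.3, 39.7, 42.9 and 55.4 CPM in the AngII+HNG libraries (log2 fold change 0.55 ± 0.10 SE, adjusted p = 0.00568). Other defining genes did not pass, among them Adgre1, at 3.37 ± 0.353 CPM in AngII and 2.62 ± 0.445 CPM in AngII+HNG (SD, n = 4 each), and Csf1r, at 53.1 ± 6.82 CPM in AngII and 59.6 ± 9.03 CPM in AngII+HNG (adjusted p = 0.185 and 0.4). A total of 16 of the 20 markers had a positive change and 4 a negative one, down to -0.43 for C1qc. No marker of the list was at 0 in all libraries. Replicate 4 was the highest AngII library in this sum, as it was for C7, Gpnmb and Spp1. The part of macrophages in the changes of the lysosomal, lipoprotein and complement genes was not tested. Calls ended for Spi1 by limma on log2 FPKM plus 1 and without AngII replicate 1, 2, 3 or 4 or AngII+HNG replicate 3 or 4. For Ptprc they ended by limma on log2 FPKM plus 1 and without AngII replicate 1, 2 or 3 or AngII+HNG replicate 4. Of the 20 markers, 3 were called by limma on log2 FPKM plus 1, 7 by DESeq2 and up to 9 over the alternatives.

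**Figure D5:**
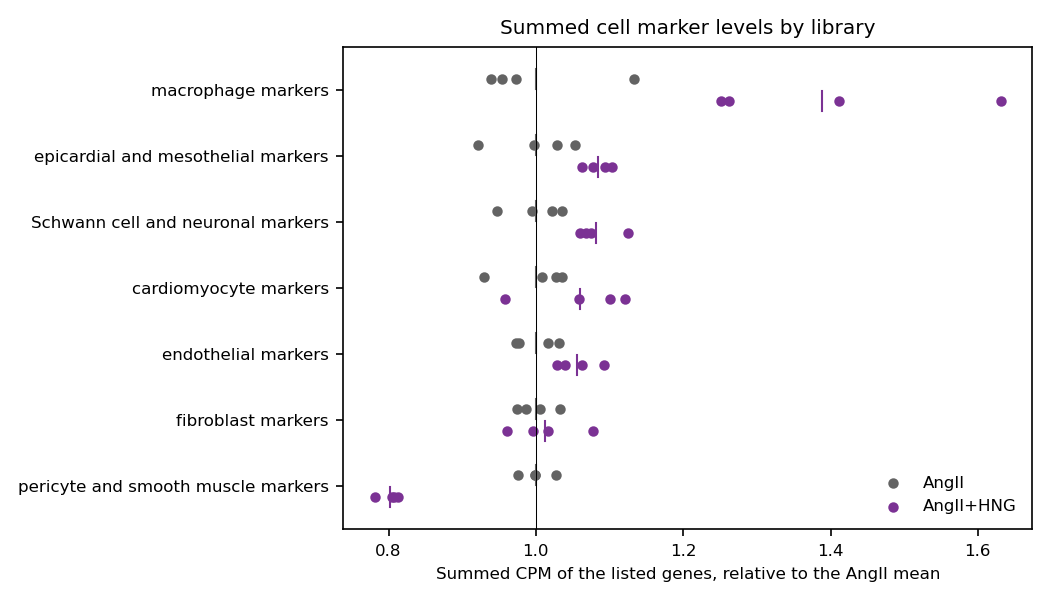
Summed CPM of 7 lists of cell type markers in each library, divided by the mean of the AngII libraries, with the group means as short lines. Macrophage markers are higher in every AngII+HNG library, at 1.25 to 1.63 times the AngII mean, pericyte and smooth muscle markers lower, at 0.781 to 0.813 times, and fibroblast markers overlap.

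Markers of other cell types were followed in the same way. The epicardial list summed to 161 to 184 CPM in AngII and 186 to 193 CPM in AngII+HNG and the Schwann cell and neuronal list to 225 to 245 CPM and 251 to 267 CPM, both without overlap. Endothelial markers summed to 514 to 546 CPM in AngII and 544 to 577 CPM in AngII+HNG; the receptors Tek, Tie1 and Kdr and the secreted Egfl7 rose, at 0.40 ± 0.065, 0.42 ± 0.083, 0.43 ± 0.10 and 0.39 ± 0.10, and Flt1 fell, at -0.31 ± 0.05, with calls ended for Kdr by limma and without AngII replicate 1 or 2 or AngII+HNG replicate 2 or 4, and Egfl7 without AngII replicate 1, 2 or 4 or AngII+HNG replicate 2, 3 or 4. The defining endothelial genes Pecam1 and Cdh5 did not pass (adjusted p = 0.373 and 0.0859). Of 17 cardiomyocyte genes 1 rose, Tnni3, and of 12 epicardial genes 1, Upk1b. The call ended for Tnni3 without AngII replicate 1, 2 or 3, where the cardiomyocyte list had 0 called members by edgeR. That list had 2 members called higher without AngII+HNG replicate 3 and 2 by DESeq2, and up to 4 over the alternatives. Of 11 Schwann cell and neuronal genes 1 rose, Npy, a neuropeptide, at 1.68, 2.08, 2.07 and 2.59 CPM in the AngII libraries and 4.05, 4.65, 5.89 and 5.74 CPM in the AngII+HNG libraries (log2 fold change 1.27 ± 0.16 SE, adjusted p = 0.000766). Among 14 markers of lymphocytes and mast cells 3 could be tested, and 8 were at 0 in all 8 libraries. Their part in other results was not tested.

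Chemokine and cytokine genes changed in both directions, with 4 of 38 lower and 3 higher. Il1rl1, which encodes ST2, the receptor of the alarmin IL-33, gave the lowest p of all annotated genes. It measured 196, 194, 198 and 179 CPM in the AngII libraries and 122, 109.8, 109.7 and 107 CPM in the AngII+HNG libraries (log2 fold change -0.78 ± 0.049 SE, adjusted p = 7.14e-06). Its co-receptor Il1rap was near the threshold (adjusted p = 0.0511), Il33 itself did not pass (adjusted p = 0.507), and the IL-1 receptor Il1r1 rose, with 299, 296, 296 and 309.7 CPM in the AngII libraries and 376, 380.1, 343 and 392 CPM in the AngII+HNG libraries (log2 fold change 0.31 ± 0.044 SE, adjusted p = 0.00148). The monocyte chemoattractants Ccl2 and Ccl7 were lower. Ccl7 measured 11.5, 11.9, 10.5 and 12.7 CPM in the AngII libraries and 8.43, 8.77, 7.895 and 9.14 CPM in the AngII+HNG libraries (log2 fold change -0.44 ± 0.086 SE, adjusted p = 0.00914). Ccl2 was at 49.9, 58.9, 40.7 and 59.7 CPM in the AngII libraries and 34.7, 33.4, 18.3 and 40.3 CPM in the AngII+HNG libraries, with AngII+HNG replicate 3 far below the rest (log2 fold change -0.72 ± 0.19 SE, adjusted p = 0.0387), and its call was lost in 9 of 19 alternatives, including DESeq2, limma and those without AngII replicate 1, 2 or 4 or AngII+HNG replicate 1 or 2.

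The scavenging receptor Ackr4 and the fractalkine receptor Cx3cr1 belong to the genes that the study also measured by qPCR. Ackr4 was at 6.12, 6.08, 6.44 and 6.51 CPM in the AngII libraries and 7.82, 8.66, 11.2 and 12.5 CPM in the AngII+HNG libraries, the upper values being those of AngII+HNG replicates 3 and 4 (log2 fold change 0.68 ± 0.13 SE, adjusted p = 0.0103). Cx3cr1, near 1 CPM, was at 1.497, 2.03, 1.46 and 1.55 CPM in the AngII libraries and 0.498, 0.735, 0.881 and 0.563 CPM in the AngII+HNG libraries (log2 fold change -1.27 ± 0.22 SE, adjusted p = 0.00519). Hspa1l, a member of the HSP70 family whose reads may be shared with its near-identical neighbours, was at 2.1, 1.91, 1.95 and 1.63 CPM in the AngII libraries and 0.996, 1.02, 0.911 and 1.55 CPM in the AngII+HNG libraries. Its call, at an adjusted p of 0.0422, was lost in 8 of 19 alternatives, among them those without AngII replicate 1, 2 or 3 or AngII+HNG replicate 1, 2 or 3. The chemokine Cxcl16 rose with a log2 change of 0.29 ± 0.061, and the call ended for Cxcl16 without AngII replicate 1 or 3. In the interferon and antigen presentation list 1 of 34 genes rose, RT1-A2, and 1 fell, Ifit2, a share near the background. Calls ended for RT1-A2 without AngII replicate 1 or 3 or AngII+HNG replicate 4, and Ifit2 by limma and without AngII replicate 1, 2, 3 or 4 or AngII+HNG replicate 2 or 4.

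Oxidative stress genes under the factor NRF2 and other antioxidants were called in 6 of 37 cases, 5 higher and 1 lower. Over the alternatives, 4 to 10 members were called higher. Hmox1, the haem oxygenase, was at 29.4, 31.01, 27.1 and 28.1 CPM in the AngII libraries and 33.5, 34.99, 37.2 and 35.4 CPM in the AngII+HNG libraries (log2 fold change 0.29 ± 0.056 SE, adjusted p = 0.00912). The glutathione peroxidases Gpx1 and Gpx3 changed by 0.26 ± 0.05 and 0.36 ± 0.066, and Gsta1, of the glutathione transferase family, by 0.44 ± 0.081. The metallothionein Mt2A rose and Slc7a11, the cystine importer, fell, with calls ended for Mt2A without AngII replicate 1, 2, 3 or 4 or AngII+HNG replicate 2, 3 or 4, and Slc7a11 by limma and without AngII replicate 1, 2 or 3 or AngII+HNG replicate 3 or 4. Sod1, Sod2 and Cat did not pass, at 0.0069 ± 0.11, -0.086 ± 0.045 and 0.062 ± 0.052. Xdh, a xanthine dehydrogenase that in its oxidase form makes superoxide, was among the genes with the largest changes, at 5.91, 5.197, 5.62 and 6.37 CPM in the AngII libraries and 9.6, 11.2, 11.4 and 12.4 CPM in the AngII+HNG libraries (log2 fold change 0.95 ± 0.10 SE, adjusted p = 0.000262). Of 39 heat shock and unfolded protein response genes, Sdf2l1 rose and Hspa1l fell. The call ended for Sdf2l1 without AngII replicate 1, 2, 3 or 4 or AngII+HNG replicate 2, 3 or 4. In this list 6 members were called lower by DESeq2 and 3 without AngII+HNG replicate 3.

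Genes of the mitochondrion, from which humanin derives, gave few differences. No member was called among 54 nuclear genes of oxidative phosphorylation (4 at an unadjusted p below 0.05), 13 mRNAs of the mitochondrial genome (1) or 24 genes of mitochondrial dynamics and quality (2) by edgeR, and none by DESeq2 or by limma on log2 FPKM plus 1. Without AngII replicate 4, 1 mRNA of the mitochondrial genome was called higher. Among the genes known to take part in fission, Dnm1l and Fis1 were at 123 ± 3.92 CPM in AngII and 119 ± 7.76 CPM in AngII+HNG and 42.9 ± 1.77 CPM in AngII and 44.4 ± 9.85 CPM in AngII+HNG (SD, n = 4 each). In glycolysis 2 of 24 were called, the glucose transporter Slc2a1, which fell (log2 fold change -0.28 ± 0.052 SE, adjusted p = 0.00694), and the monocarboxylate transporter Slc16a1, which rose (log2 fold change 0.16 ± 0.044 SE, adjusted p = 0.045) and lost its call in 11 of 19 alternatives, among them those without AngII replicate 1, 2, 3 or 4 or AngII+HNG replicate 1, 2 or 4.

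No gene of the humanin receptors and gp130 cytokines was called among 24 tested by edgeR, DESeq2 or limma, and 3 were at an unadjusted p below 0.05. With the replicate number as a block 1 member was called higher. Il6st, which encodes gp130, measured 685, 651, 695 and 666 CPM in the AngII libraries and 645, 641, 611 and 668 CPM in the AngII+HNG libraries, with overlapping groups (log2 fold change -0.072 ± 0.039 SE, adjusted p = 0.331). Its partners in the humanin receptor complex did not pass, Cntfr at 0.562 ± 0.261 CPM in AngII and 0.783 ± 0.172 CPM in AngII+HNG and Il27ra at 2.48 ± 0.558 CPM in AngII and 2.303 ± 0.388 CPM in AngII+HNG (SD, n = 4 each). Stat3, the main transcription factor of this route, and its feedback inhibitor Socs3 changed by 0.027 ± 0.035 and 0.11 ± 0.086. The IGF axis, whose binding protein Igfbp3 is a known partner of humanin, had no call among 15 genes either, with 2 at an unadjusted p below 0.05, and Igfbp3 was at 73.1 ± 6.71 CPM in AngII and 81.3 ± 9.69 CPM in AngII+HNG. In that list 1 member was called higher with the replicate block and 1 without AngII+HNG replicate 3. Of 15 BCL2 family genes, Bcl2a1 and Bid rose, at 0.64 ± 0.14 and 0.39 ± 0.10, with calls ended for Bcl2a1 without AngII replicate 1 or 2, and Bid by limma and without AngII replicate 1, 2 or 3 or AngII+HNG replicate 1, 2 or 3. Bax, a protein that humanin is known to bind, did not pass (log2 fold change 0.16 ± 0.11 SE, adjusted p = 0.465).

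In the cell cycle list 1 of 42 genes was called, a share below the background. This was Ccnd1, the cyclin D1 of the entry into the cycle, which rose with 128, 135, 124 and 111 CPM in the AngII libraries and 192, 199.7, 173 and 170.2 CPM in the AngII+HNG libraries (log2 fold change 0.56 ± 0.064 SE, adjusted p = 0.000457). The proliferation genes Mki67, Top2a and Ccnb1 did not pass, with log2 changes of 0.085 ± 0.054, -0.023 ± 0.065 and 0.022 ± 0.056.

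Of 29 ion channels, connexins and transporters of the heart 3 rose and 1 fell. Aqp1, the water channel of endothelium and stroma, measured 98.8, 102, 86.96 and 96.9 CPM in the AngII libraries and 161, 178, 143 and 183 CPM in the AngII+HNG libraries (log2 fold change 0.79 ± 0.073 SE, adjusted p = 0.000126). Gja5, the connexin 40 of atrial myocytes and endothelium, was at 13.9, 13.1, 15.4 and 13.8 CPM in the AngII libraries and 21.8, 17.8, 22.3 and 17.6 CPM in the AngII+HNG libraries (log2 fold change 0.50 ± 0.089 SE, adjusted p = 0.00603), and Gja1, the connexin 43, at 77.3 ± 4.48 CPM in AngII and 78.7 ± 5.08 CPM in AngII+HNG, which did not pass. Trpc6, a calcium-permeable channel linked to myofibroblast activation, measured 21.8, 19.2, 19.5 and 18.7 CPM in the AngII libraries and 16, 14.1, 11.8 and 12.9 CPM in the AngII+HNG libraries (log2 fold change -0.53 ± 0.089 SE, adjusted p = 0.0042), and Trpv2 changed by 0.29 ± 0.06, with the call ended for Trpv2 without AngII replicate 1.

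Among annotated genes at 5 CPM or more, the 12 largest increases without overlap were, besides Apoe, Xdh, C7, Cd34, Aqp1, C4a and C1s, those of Lbp, Akr1c15, Htra3, Fam180a and Mgst2. Akr1c15, of the aldo-keto reductase family, was at 33.1, 36.01, 36.4 and 35.3 CPM in the AngII libraries and 59.98, 62.8, 62.7 and 70.2 CPM in the AngII+HNG libraries, with the second lowest p of all annotated genes (log2 fold change 0.86 ± 0.056 SE, adjusted p = 7.14e-06). Lbp, the binding protein of bacterial lipopolysaccharide, measured 12.2, 9.65, 12.6 and 14.2 CPM in the AngII libraries and 21.4, 20.2, 26.4 and 22.5 CPM in the AngII+HNG libraries (log2 fold change 0.89 ± 0.11 SE, adjusted p = 0.000645), and the secreted serine protease Htra3 21.6, 23.7, 21.8 and 25.5 CPM in the AngII libraries and 34.8, 41.5, 40.3 and 51.2 CPM in the AngII+HNG libraries (log2 fold change 0.86 ± 0.10 SE, adjusted p = 0.000474). Fam180a changed by 0.81 ± 0.12 and the microsomal glutathione transferase Mgst2 by 0.79 ± 0.16.

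The 12 largest decreases included Il1rl1, Has2, Ccl2 and Ccn4. The others were Sema5b, Nap1l5, Ranbp3l, Clec2d, Myh1, Kcna6, Adamts8 and Adarb1, with log2 changes between -0.64 ± 0.081 for Sema5b and -0.53 ± 0.049 for Adarb1. Adarb1, the RNA-editing adenosine deaminase ADAR2, was at 194, 180.5, 194 and 179 CPM in the AngII libraries and 140.1, 124, 130.1 and 123 CPM in the AngII+HNG libraries, without overlap (log2 fold change -0.53 ± 0.049 SE, adjusted p = 0.000126). Myh1, a skeletal muscle myosin that may share reads with related myosins, lost its call without AngII replicate 1 or 2 and by limma. Sema5b, a semaphorin, fell from 14.1 ± 1.04 CPM in AngII to 9.04 ± 0.539 CPM in AngII+HNG (SD, n = 4 each).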

How the data were processed

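The authors deposited 2 tables for the series, 1 of raw read counts per gene and 1 of FPKM per gene, each with a column for every library. Poly(A) RNA libraries were sequenced; the submitters' processing notes name HISAT2, Picard 1.41 and SAMtools 0.1.18, while neither the read counter, with its strand setting, nor the build is given in the sources used here, so that overlapping and near-identical genes are uncertain. The deposited counts of the 8 libraries were tested with edgeR 4.0.16 in R 4.3.3 (filterByExpr, TMM factors, quasi-likelihood test, Benjamini-Hochberg adjustment over all 14524 tested genes, threshold 0.05), with no covariate. Of 22850 features, 4794 were at 0 in the 8 libraries. The script was tested on simulated data. SE and 95% confidence intervals came from the same fit. Median depth was 36564439 counts in AngII and 34014645 in AngII+HNG. Alternatives used DESeq2 1.42.0, limma 3.58.1 on log2(FPKM + 1) and log2(FPKM + 0.1) of the deposited FPKM, which understates changes of low genes, other scaling factors, filters and robust estimation, blocks, summed replicates, and each library left out in turn.

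The genes named were those that the study measured by qPCR for HNG, the 12 largest changes in each direction among called, non-overlapping annotated genes of at least 5 CPM, the 8 largest differences in CPM in each direction, and any member of the gene lists. A gene that this rule selects is not reported here, though it is counted in its lists. The members and lists were chosen with earlier results of these data known. A list is described by its counts and its median beside those of all tested genes, with no test of the list. Of 1009 distinct listed genes, a list of sex-linked genes used as a check included, 1002 were in the table and 933 were tested. Promoter sequences came from a RefSeq table (GRCr8), matched by symbol, and the CArG box and CACGTG were searched by letters in the 250 bases before the gene start.

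Whether the numbers in the titles pair the samples is not given by the labels. The deviations of same-numbered AngII and AngII+HNG libraries from their group means correlated between -0.076 and 0.136, highest for replicate 4. These correlations cannot decide whether the samples were paired. The 5 sex-linked genes tested as a check gave 0 calls.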

Additional observations from a re-analysis of the deposited data

Results flagged for a closer look

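In each group of 4 libraries, the gap between the highest or lowest value and the nearest other value was divided by the range of the group, and a ratio above 0.829 marked a library far from the other 3. Of 408 groups examined (195 genes and the summed cell type markers), 14 passed, while chance passes about 1 in 20. Over all tested genes, the distance of 2 libraries of a group was also measured as a chi-square per gene. It was 14.2 to 19.2 for the pairs with AngII+HNG replicate 3 and 4.30 to 8.76 for all other pairs.

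Of the 14, 5 were AngII replicate 4 standing high. They were Hexa (ratio 0.986; 86.9 CPM against 77.5 to 77.7), Lamp1 (0.891; 481 against 428 to 434), Ctsd (0.838; 592 against 509 to 522), Ptprc (0.848; 17.7 against 14.7 to 15.2) and the summed macrophage markers (0.829; 426 against 353 to 365). In AngII+HNG, replicate 4 was high for Grn (0.897; 478 CPM), Timp2 (0.883; 846 CPM) and Tpp1 (0.853; 108 CPM) and low for Bcar1 (0.899; 132 CPM).

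The remaining 5 lay in other libraries. AngII replicate 1 was high for Tns1 (0.863; 946 CPM) and Lrp1 (0.845; 1445 CPM), and AngII replicate 2 for Cx3cr1 (0.845; 2.03 CPM against 1.46 to 1.55). AngII+HNG replicate 1 was high for Col4a1 (0.913; 6239.8 CPM) and replicate 3 low for Sgsh (0.92; 30.9 CPM against 35.8 to 36.2).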

How the results depend on the processing

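Against 869 calls, 494 higher and 375 lower, the alternatives gave 577 calls with replicates 2 and 3 of each group, whose library names share a number, summed to 1 (327 higher) and between 431 (without AngII replicate 1) and 932 (without AngII+HNG replicate 3) with 1 library left out, of which 254 to 519 were higher and 177 to 413 lower. AngII replicates 1, 2 and 3 each took away more calls than any AngII+HNG library. DESeq2 called 1192 genes, 580 of them lower, and shared 862 with the 869. limma on log2 FPKM called 210 lower genes with either pseudocount and 2 or 9 genes of 2-fold or more against 23, a count that ran from 13 to 29 without 1 library. The other scalings and filters and robust estimation gave 810 to 949 calls. In all, 359 of the 869 genes were called in each of the 19 alternatives, and none of the 869 changed sign in any of them.

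With 1 library left out, 7 to 15 integrin and focal adhesion genes were called lower, 3 to 8 LXR and lipoprotein genes higher and 13 to 23 lysosomal hydrolases higher. The Col1a1 log2 change ran from -0.068 to 0.0038, positive without AngII+HNG replicate 3. For single named genes, 796 alternative values kept their direction and side of the threshold, 39 lost the call and 1 changed sign.

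A replicate block by title number gave 1111 called genes, 829 of them among the 869, and a block by library name gave 1113. The pairing is not given by the labels, and the deviations of same-numbered libraries correlated between -0.076 and 0.136. The common biological coefficient of variation was 0.0786 with 4 libraries a group. Of 1433 genes below 1 CPM, 9 were called. Whether few of these genes changed or their changes escaped the test was not tested.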

Other observations

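The genes Gpc3, Sulf2 and Egfl6 were on no list and were chosen after their values were seen. Gpc3, a glypican that modulates growth factor signals at the cell surface, measured 101, 106, 106 and 94.1 CPM in the AngII libraries and 147, 152, 157 and 136 CPM in the AngII+HNG libraries (log2 fold change 0.54 ± 0.053 SE, adjusted p = 0.00015, edgeR). Sulf2, a sulfatase that removes sulfate groups from heparan sulfate, was at 138, 146, 143 and 136 CPM in the AngII libraries and 180.3, 191, 187 and 177 CPM in the AngII+HNG libraries (log2 fold change 0.38 ± 0.04 SE, adjusted p = 0.000202, edgeR). In both genes each AngII+HNG library was above each AngII library. Egfl6, a secreted matrix protein with EGF repeats, measured 1.21, 0.657, 1.22 and 1.33 CPM in the AngII libraries and 2.28, 1.97, 2.31 and 2.67 CPM in the AngII+HNG libraries (log2 fold change 1.06 ± 0.21 SE, adjusted p = 0.0104, edgeR), near the lower end of the levels tested.

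Several of the genes with changes of 2-fold or more were below 5 CPM and so outside the naming rule. Spry3, of the Sprouty family of receptor kinase inhibitors, measured 0.709, 0.771, 0.547 and 0.427 CPM in the AngII libraries and 0.107, 0.21, 0.0607 and 0.281 CPM in the AngII+HNG libraries (log2 fold change -1.83 ± 0.41 SE, adjusted p = 0.0188, edgeR), values near the floor of 3 counts. Esyt3, a protein of contacts between the endoplasmic reticulum and the plasma membrane, was at 2.97, 1.83, 2.83 and 1.47 CPM in the AngII libraries and 4.76, 4.83, 5.28 and 3.798 CPM in the AngII+HNG libraries (log2 fold change 1.04 ± 0.20 SE, adjusted p = 0.00973, edgeR). Cytl1, a small secreted cytokine-like protein, measured 0.446, 0.286, 0.122 and 0.107 CPM in the AngII libraries and 0.462, 0.919, 1.37 and 0.591 CPM in the AngII+HNG libraries (log2 fold change 1.78 ± 0.46 SE, adjusted p = 0.0394, edgeR). These groups did not overlap. Esyt3 stayed called in each of the 19 alternatives. The call of Spry3 was lost in 3 of them, by limma on log2 FPKM plus 1 and without AngII replicate 1 or 2, and 2 others gave it no adjusted p. The call of Cytl1 was lost in 8, among them limma with either pseudocount and those without AngII replicate 2, 3 or 4 or AngII+HNG replicate 2 or 3.

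A pair of assembled transcripts, which by their names share 1 locus and carry no gene name, showed opposite patterns. MSTRG.20982.1 measured 7.38, 6.196, 5.53 and 5.17 CPM in AngII and was at 0 in each AngII+HNG library. MSTRG.20982.2 was at 0 in AngII replicates 1, 2 and 3, at 2.48 CPM in replicate 4 and at 5.87, 7.22, 6.35 and 7.03 CPM in AngII+HNG. Counts of transcripts of 1 locus can be divided between them by the counting, and the build and location of the locus are not given in the sources used here.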
